A study of Mus musculus with 8 samples.

Results

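The proteasome is the protease complex that degrades ubiquitin-tagged proteins, and its subunit genes were described here in mouse peritoneal macrophages, the resident phagocytes of the abdominal cavity. Genes were taken by symbol (Psma, Psmb, Psmc, Psmd, Psme, Psmf or Psmg followed by a number). Of the 50 genes that matched, 47 averaged 1 FPKM or more (fragments scaled by transcript length and library size) over the 8 libraries, among 10447 such genes of the 24339 in the table. The 47 comprised 5 immune forms, Psmb8, Psmb9, Psmb10, Psme1 and Psme2, and 42 other genes. The 3 genes below the limit were Psma8, an alpha subunit known from the testis, at 0.129 to 0.715 FPKM, Psmb11, the subunit of thymic epithelium, listed at 0 FPKM in all libraries, and Psmc3ip, a recombination protein that is no proteasome subunit, at 0.126 to 1.14 FPKM. The lowest member above the limit was Psmg1, with a mean of 6.67 FPKM, and the highest was Psme2, with a mean of 273 FPKM.

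All cells came from C57BL/6 mice and were cultured overnight before treatment. They were wild type or α7nAChR-/-, without the α7 nicotinic acetylcholine receptor, which is encoded by Chrna7. Each genotype was given vehicle throughout, nicotine alone (10 μM), vehicle followed by lipopolysaccharide (LPS, a bacterial cell wall component that activates Toll-like receptor signalling, 100 ng/ml), or nicotine followed by LPS. The first agent or its vehicle was given for 15 min and the second for 4 h. Each of the 8 groups was sequenced as 1 library without replicates. The labels did not name animals, pools or ages, nor say if wild-type and α7nAChR-/- cells were each prepared once, so a genotype effect and a difference between preparations cannot be told apart.

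As background, the 20S core of the proteasome is a barrel of alpha rings, which gate entry, and beta rings, which carry the proteolytic sites. The 19S cap recognises ubiquitinated proteins, removes the ubiquitin and unfolds the substrate with a ring of ATPases. In cells exposed to interferon, the standard catalytic subunits Psmb5, Psmb6 and Psmb7 are replaced in new particles by Psmb8, Psmb9 and Psmb10, which favour peptides that fit MHC class I molecules. Psme1 and Psme2 form the PA28 activator, an alternative cap.

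Each factor was tested by comparing the 4 libraries with it and the 4 without it on log2(FPKM + 1) with limma, over all 10447 genes, and a gene was called at a Benjamini-Hochberg adjusted p below 0.05. Since an arm mixed the levels of the other 2 factors, its 4 libraries were not replicates of 1 condition, and the error is the departure from additive effects. Log2 changes are given ± SE, on the log2(FPKM + 1) scale, which understates the change of low genes. Read depth was not given in counts. The summed FPKM of all genes was 413052 to 529093 in the 4 libraries without LPS and 627160 to 854016 in the 4 with it, while the median of tested genes was 9.66 to 10.2 FPKM. Chrna7 was listed at 0 FPKM in all 8 libraries, wild type included, so the genotype labels had no check. Gapdh, a gene of glycolysis, stood at only 1.34 to 8.90 FPKM, so low values may be failed estimates. All 10 macrophage markers were above 1 FPKM on average and summed to 21513 to 36897 FPKM per library. Markers of other cells summed to 186 to 396 FPKM for B cells (8 of 8 genes averaging 1 FPKM or more), 159 to 807 for mast cells (7 of 8), 22.9 to 175 for neutrophils (2 of 7), 8.61 to 124 for dendritic cells (3 of 6), 4.10 to 10.4 for T or NK cells (4 of 8) and 0.907 to 18.7 for mesothelial cells or fibroblasts (1 of 7), and no marker in these lists was at 0 in all libraries. Because these are bulk samples, fewer cells of a type and less RNA per cell cannot be told apart.

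The 3 immune catalytic subunits were lowest with nicotine alone and highest with LPS alone in both genotypes. Psmb9, which takes the place of Psmb6, was listed in wild-type cells at 28.3 FPKM with vehicle, 5.07 after nicotine, 175 after LPS and 7.56 after nicotine followed by LPS. The α7nAChR-/- libraries had 75.9, 18.7, 259 and 41.5 FPKM of Psmb9 in the same order. In wild-type cells Psmb9 was thus lower with nicotine and LPS together than with vehicle alone, and in each genotype both nicotine libraries were below both libraries without it. Psmb9 lies on the minus strand of chromosome 17 (chr17:34181987-34187764, GRCm38, GENCODE M21) and starts head to head with Tap1, the peptide transporter of MHC class I loading. In GENCODE M21 it shares 5.79% of its exon bases with Tap1. The libraries were not made with a strand-marking kit, so reads in that overlap cannot be assigned to either gene. The promoter window of Psmb9 (RefSeq, GRCm38.p6, chr17:34187281-34187580, minus strand, 250 bases before the start site and 50 after) is shown because it holds the start of both genes. Capitals mark the first 25 bases of Tap1, read here on the opposite strand, and the 50 transcribed bases of Psmb9. In RefSeq 225 bases lie between the start sites. GENCODE differs here, as its Psmb9 model extends past the RefSeq start (34187330) to 34187764 and so reaches into Tap1.
Psmb9: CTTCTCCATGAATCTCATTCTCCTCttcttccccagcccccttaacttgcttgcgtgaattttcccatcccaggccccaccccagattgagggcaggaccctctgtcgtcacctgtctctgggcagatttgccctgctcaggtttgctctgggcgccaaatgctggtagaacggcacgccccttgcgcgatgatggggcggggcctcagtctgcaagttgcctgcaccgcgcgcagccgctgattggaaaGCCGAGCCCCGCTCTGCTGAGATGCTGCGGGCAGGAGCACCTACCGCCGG

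Psmb8, which replaces Psmb5, was listed at 71.0 FPKM with vehicle, 31.1 after nicotine, 446 after LPS and 48.8 after both agents in wild-type cells. In α7nAChR-/- cells Psmb8 was at 189, 83.8, 558 and 184 FPKM in that order. The wild-type values with nicotine, with or without LPS, were the lowest pair of the 8. Psmb8 (chr17:34197721-34201454, plus strand) lies beyond Tap1 in the MHC region and shares 14.7% of its exon bases with the antisense gene Gm20496, whose reads cannot be separated without strand. Its promoter window (RefSeq, GRCm38.p6, chr17:34197945-34198244, plus strand) is shown for a match, in capitals, to the core of the gamma-activated site, TTCNNNGAA. This is a motif of interferon-responsive promoters, and the match lies 97 bases upstream of the RefSeq start site. GENCODE M21 starts Psmb8 earlier, at 34197721, so the whole window lies within its gene model.
Psmb8: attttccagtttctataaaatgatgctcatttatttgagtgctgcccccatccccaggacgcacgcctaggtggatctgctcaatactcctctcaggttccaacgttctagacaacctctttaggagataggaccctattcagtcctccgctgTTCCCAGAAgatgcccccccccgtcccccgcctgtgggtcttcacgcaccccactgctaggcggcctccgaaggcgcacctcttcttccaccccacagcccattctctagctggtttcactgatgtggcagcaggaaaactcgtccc

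Psmb10, which replaces Psmb7, lies apart from these genes on chromosome 8 (chr8:105935735-105938444, minus strand). Its wild-type values were 41.0 FPKM with vehicle, 11.2 after nicotine, 225 after LPS and 16.2 after both, and its α7nAChR-/- values 97.9, 30.2, 287 and 49.2 FPKM. As for Psmb9, the libraries with nicotine and LPS were below the vehicle library in both genotypes.

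The PA28 genes were also lowest with nicotine alone and highest with LPS alone in both genotypes. Psme1 was at 86.8, 50.8, 310 and 63.8 FPKM in wild-type cells (vehicle, nicotine, LPS, both) and at 173, 102, 445 and 171 FPKM in α7nAChR-/- cells. Psme2 was at 51.9, 44.4, 641 and 70.9 FPKM in wild-type cells and at 240, 141, 755 and 239 FPKM in α7nAChR-/- cells. For both genes the 2 LPS-only libraries were the highest of the 8, and the wild-type vehicle library was below the α7nAChR-/- vehicle library. Psme2 was the 1 immune form listed higher in wild-type cells with both agents than with vehicle, by 1.37 times. The pair are neighbours on chromosome 14 (Psme1 chr14:55578123-55581529, plus strand, and Psme2 chr14:55587441-55591113, minus strand). The promoter window of Psme1 (RefSeq, GRCm38.p6, chr14:55578244-55578543, plus strand) is shown for the core of the interferon-stimulated response element, GAAANNGAAA. The match, in capitals, reads on the opposite strand and begins at base 10 of the RefSeq transcript. GENCODE M21 starts Psme1 earlier, at 55578123, so the whole window lies within its gene model.
Psme1: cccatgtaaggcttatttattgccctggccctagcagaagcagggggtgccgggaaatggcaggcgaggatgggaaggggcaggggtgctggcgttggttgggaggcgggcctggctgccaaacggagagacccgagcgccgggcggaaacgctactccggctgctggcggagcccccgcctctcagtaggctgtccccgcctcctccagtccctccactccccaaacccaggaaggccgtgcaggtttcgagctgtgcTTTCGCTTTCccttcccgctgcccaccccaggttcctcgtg

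Psme2b, an intron-less copy of Psme2 on chromosome 11 (chr11:48945354-48946190, minus strand), was counted by its symbol among the other 42. It was listed at 40.1, 25.4, 231 and 45.8 FPKM in wild-type cells and at 100, 54.0, 284 and 105 FPKM in α7nAChR-/- cells, in the order vehicle, nicotine, LPS, both. Of the 50-base words in its transcript, 68.7% also occur in Psme2 transcripts, so its values are uncertain and may hold reads of Psme2. In turn, 28.3% of the words in Psme2 transcripts occur in Psme2b, so the Psme2 values may also be affected.

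**Figure D1:**
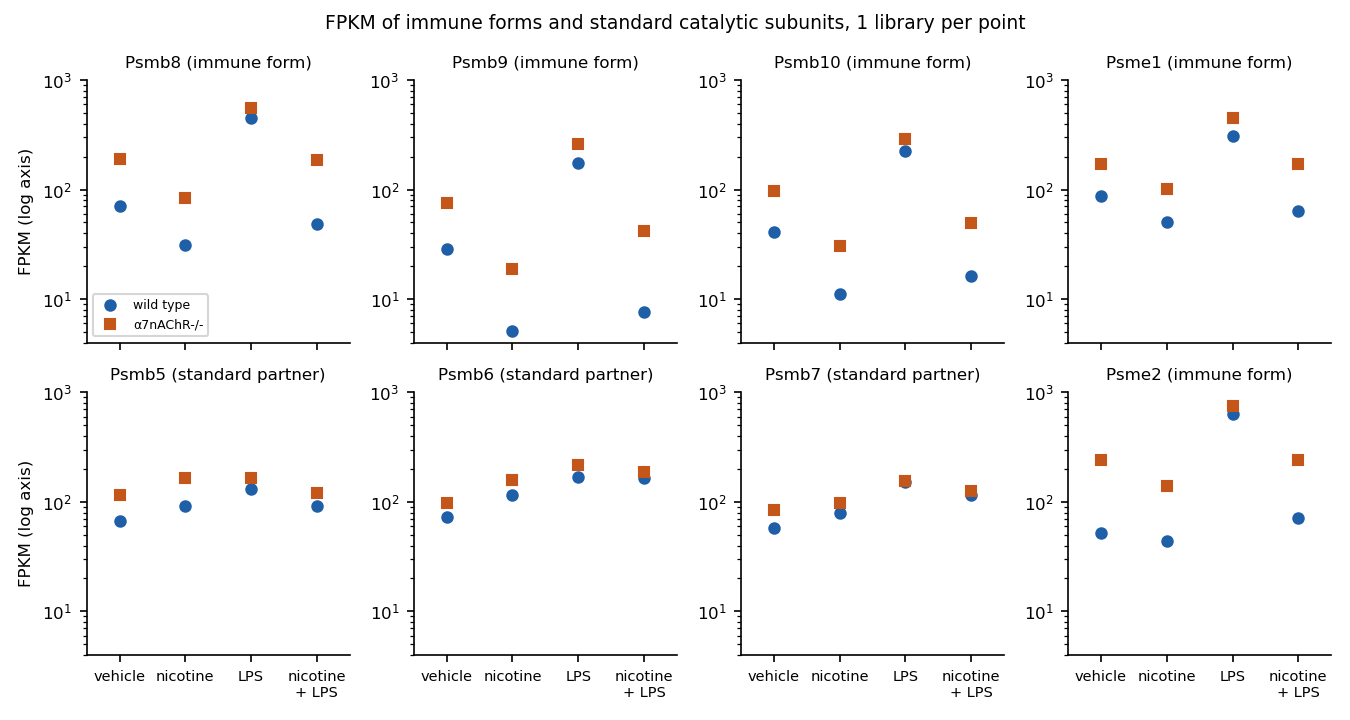
FPKM (log axis) of the 5 immune forms and the 3 standard partners in each of the 8 libraries, by treatment on the horizontal axis, with circles for wild type and squares for α7nAChR-/-. Each immune form is lowest with nicotine and highest with LPS in both genotypes, while Psmb5, Psmb6 and Psmb7 span only 57.3 to 218 FPKM.

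All 5 immune forms rose with LPS over the average of the other factors. The increases were 1.67 ± 0.47 for Psme2, 1.49 ± 0.34 for Psmb8, 1.49 ± 0.37 for Psmb9, 1.29 ± 0.34 for Psmb10 and 1.06 ± 0.26 for Psme1 (limma, adjusted p 0.0423, 0.0241, 0.0307, 0.0342 and 0.0292). Each was in the same direction in 4 of 4 matched pairs. Of all tested genes 15.8% were called higher with LPS and 11.3% lower. The 4 LPS libraries still overlapped the 4 without LPS for all 5 genes, because the wild-type library with both agents was below the α7nAChR-/- vehicle library. Of the 5 immune forms, 1 was called without the filter on low values, 1 after quantile scaling, 2 after scaling to equal summed FPKM, 2 with the matched pairs as blocks and none with LPS as the sole factor. None was called without the wild-type vehicle library, or without the α7nAChR-/- vehicle, LPS or nicotine and LPS library, although 5 of 5 had an unadjusted p below 0.05 without either vehicle library or the α7nAChR-/- LPS library.

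All 5 immune forms also fell with nicotine. Psmb9 fell by 2.80 ± 0.37, Psmb10 by 2.42 ± 0.34, Psmb8 by 1.77 ± 0.34, Psme2 by 1.45 ± 0.47 and Psme1 by 1.29 ± 0.26 on the log2 scale (limma, adjusted p 0.00175, 0.00208, 0.0065, 0.0428 and 0.00815), each in 4 of 4 matched pairs. For comparison, 22.2% of all tested genes were called lower with nicotine and 24.1% higher. The estimates were larger for the 3 catalytic than for the 2 activator subunits, a difference that was not tested. Scaling the libraries in any of 3 other ways left 5 of 5 called lower, and leaving out each library 4 or 5. With the matched pairs as blocks 4 were called, without the filter on low values 4, and with nicotine as the sole factor 2.

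The catalytic immune subunits were then set against their standard partners within each library, where a scaling factor common to a library cancels. The ratio of Psmb9 to Psmb6 FPKM in wild-type cells was 0.386 with vehicle, 0.0435 after nicotine, 1.02 after LPS and 0.0453 after both agents. In α7nAChR-/- cells it was 0.779, 0.117, 1.19 and 0.223. Only in the 2 libraries with LPS alone was Psmb9 listed above Psmb6. The ratio of Psmb10 to Psmb7 was 0.715, 0.142, 1.48 and 0.140 in wild-type cells and 1.17, 0.307, 1.84 and 0.390 in α7nAChR-/- cells. The ratio of Psmb8 to Psmb5 was 1.07, 0.338, 3.43 and 0.531 in wild-type cells and 1.63, 0.511, 3.38 and 1.52 in α7nAChR-/- cells. Every one of the 3 ratios was lower with nicotine than without it in each of the 4 pairs of libraries. The 5 immune forms together held 13.0% of the summed FPKM of the 47 genes in wild-type vehicle cells, 4.75% after nicotine, 28.5% after LPS and 5.45% after both. The shares in α7nAChR-/- cells were 23.0%, 9.53%, 32.5% and 14.4%.

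The standard subunits themselves moved less. Psmb5, the chymotrypsin-like site, was at 66.6, 91.9, 130 and 91.8 FPKM in wild-type cells (vehicle, nicotine, LPS, both) and at 116, 164, 165 and 121 FPKM in α7nAChR-/- cells. Its average LPS change of 0.26 ± 0.23 and nicotine change of 0.00 ± 0.23 did not pass the test (limma, adjusted p 0.415 and 0.996), and the LPS change turned negative under quantile scaling and under scaling to equal summed FPKM. Psmb6, the caspase-like site, was at 73.4, 117, 170 and 167 FPKM and at 97.5, 160, 218 and 186 FPKM in the same order. Psmb7, the trypsin-like site, was at 57.3, 78.7, 152 and 116 FPKM and at 83.5, 98.2, 156 and 126 FPKM. Psmb6 and Psmb7 rose with LPS by 0.77 ± 0.20 and 0.80 ± 0.19 (limma, adjusted p 0.0321 and 0.0268), and their nicotine changes of 0.28 ± 0.20 and 0.00 ± 0.19 did not pass (limma, adjusted p 0.286 and 0.999).

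Over the 42 other genes, 16 rose with LPS on average and none fell, with a median change of 0.63 beside 0.02 for all tested genes and 1.49 for the immune forms. By role these were 4 of 7 alpha ring subunits, 4 of 7 standard beta ring subunits, 3 of 6 cap ATPases, 4 of 11 other cap subunits, none of 3 further activators and inhibitors, none of 7 assembly factors, and Psme2b. The largest increases were those of Psme2b at 1.44 ± 0.28, of Psmd14, the cap's deubiquitinating subunit, at 1.11 ± 0.21, and of Psma3, an alpha subunit, at 1.05 ± 0.25 (limma, adjusted p 0.0163, 0.0146 and 0.0271). Psmd14 was at 28.6, 45.9, 102 and 84.3 FPKM in wild-type cells and at 42.8, 70.1, 94.1 and 111 FPKM in α7nAChR-/- cells, so all 4 LPS libraries were above all 4 without LPS. Such a gap was seen in 10 of the 42 genes, beside 9.83% of all tested genes, and the reverse gap in none of the 42 and 7.55% of all. At the other end were 3 assembly factors, Psmd5 at -0.23 ± 0.18, Psmg3 at -0.07 ± 0.18 and Psmg1 at -0.05 ± 0.15 (limma, adjusted p 0.339, 0.768 and 0.784).

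The count of genes called with LPS rested on the scaling of the libraries. Of all 47 genes, 21 were called higher and none lower as deposited, 4 higher and 1 lower after quantile scaling, and 5 higher and 5 lower after scaling to equal summed FPKM. The last scaling shifted the median LPS change of all tested genes from 0.02 to -0.51, and the median of the 42 other genes then lay 0.53 above it, against 0.61 as deposited and 0.19 under quantile scaling. Without 1 library, 0 of 47 genes were called when the α7nAChR-/- vehicle or LPS library was left out (22 and 24 at an unadjusted p below 0.05, limma), 2 without the wild-type vehicle library, 5 without the wild-type LPS library, 10 without wild-type nicotine, 11 without α7nAChR-/- nicotine and LPS, and 13 without wild-type nicotine and LPS.

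**Figure D2:**
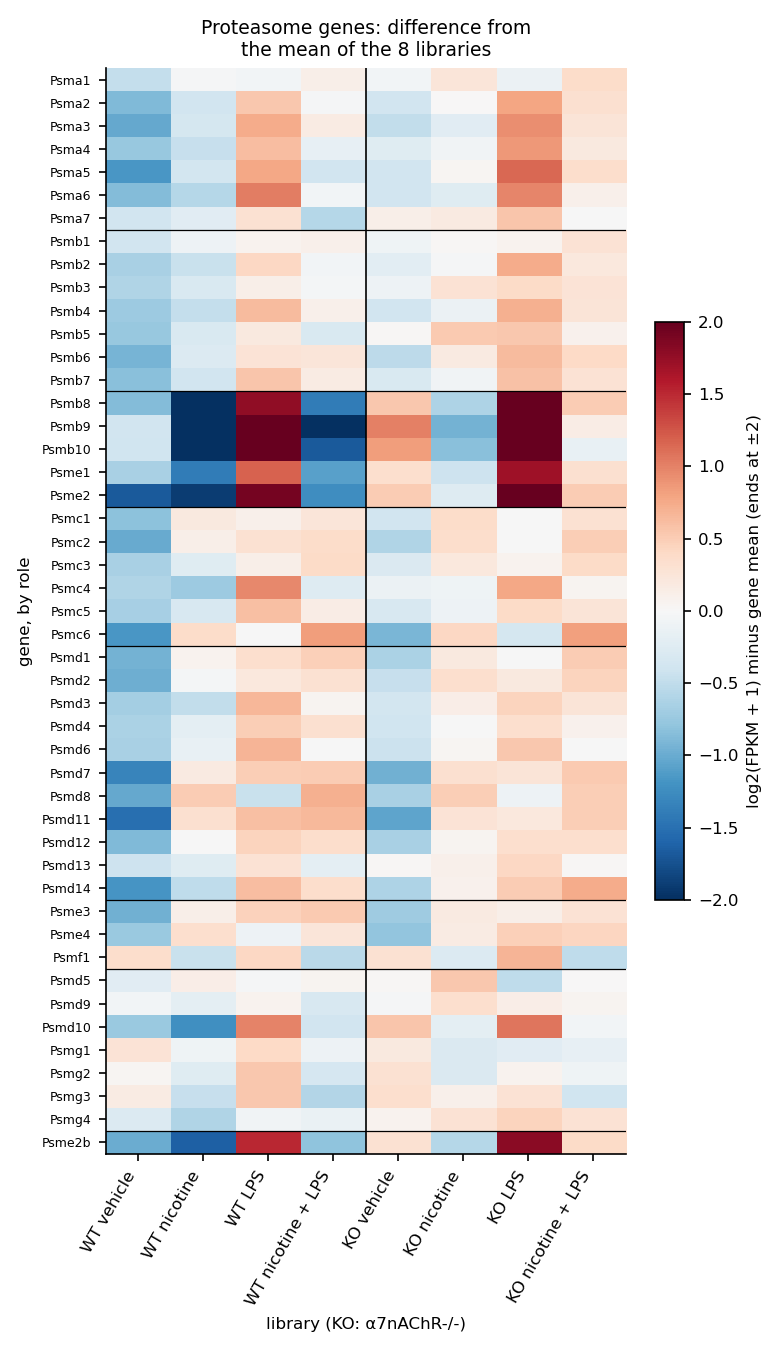
Difference of each of the 47 genes from its own mean over the 8 libraries, in log2(FPKM + 1), with genes as rows grouped by role and libraries as columns (KO is α7nAChR-/-). The 5 immune forms, Psme2b and the assembly factor Psmd10 are lowest with nicotine alone and highest with LPS alone in both genotypes. Of the 42 other genes, 30 are lowest with vehicle in both genotypes.

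Of the 42 other genes, 5 rose and 5 fell with nicotine on average, with a median change of -0.00, and 32 did not pass the test. The shares of all tested genes were 24.1% called higher and 22.2% lower, both above the shares among the 42. The 5 that rose were cap genes, the ATPases Psmc6, Psmc2 and Psmc1 and the non-ATPase subunits Psmd8 and Psmd1. The 5 that fell were the assembly factors Psmd10, Psmg3 and Psmg2, the inhibitor Psmf1, and Psme2b. None of the 7 alpha or 7 standard beta ring genes passed the test (limma); their changes ran from -0.39 to 0.35.

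Psmc6, an ATPase of the cap's base, was at 41.6 FPKM with vehicle, 123 after nicotine, 94.1 after LPS and 170 after both in wild-type cells, and at 49.8, 127, 74.1 and 167 FPKM in α7nAChR-/- cells. Psmd8, a lid subunit, was at 71.1, 207, 107 and 238 FPKM and at 92.4, 205, 135 and 205 FPKM in the same order. All 4 nicotine libraries were above all 4 others for both genes, which was so in 4 of the 42 genes and in 17.7% of all tested genes. The increases were 1.22 ± 0.16 for Psmc6 and 1.10 ± 0.17 for Psmd8 (limma, adjusted p 0.00181 and 0.00305). Psmd11, a lid subunit, was at 22.9, 84.1, 103 and 106 FPKM and at 31.9, 81.2, 78.1 and 95.2 FPKM. Its change of 0.87 ± 0.32 did not pass (limma, adjusted p 0.0603); it was low in the 2 vehicle libraries and at 78.1 FPKM or more in the other 6. The promoter window of Psmc6 (RefSeq, GRCm38.p6, chr14:45329574-45329873, plus strand), the member with the largest nicotine increase, is shown with a match to the core of the antioxidant response element, TGACNNNGC, the letters read by the factors Nfe2l1 and Nfe2l2. The match, in capitals, reads on the opposite strand and begins 227 bases upstream of the start site.
Psmc6: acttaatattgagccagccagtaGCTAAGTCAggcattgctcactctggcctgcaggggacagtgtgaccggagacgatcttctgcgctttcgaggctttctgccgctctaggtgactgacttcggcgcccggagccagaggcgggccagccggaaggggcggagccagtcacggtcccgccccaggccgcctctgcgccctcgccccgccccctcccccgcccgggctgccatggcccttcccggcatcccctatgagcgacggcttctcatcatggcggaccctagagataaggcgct

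Of the genes that fell with nicotine, Psmf1, an inhibitor of the core particle, was at 8.47, 4.45, 8.94 and 4.13 FPKM in wild-type cells and at 8.15, 5.17, 10.9 and 4.25 FPKM in α7nAChR-/- cells. The 4 nicotine libraries were below all 4 others, as for 3 of the 42 genes and 14.4% of all tested genes, and the decrease was by 0.87 ± 0.14 (limma, adjusted p 0.00344). Psmd10, a chaperone of cap assembly, was at 18.4, 12.8, 63.7 and 23.8 FPKM and at 46.5, 27.2, 67.2 and 30.3 FPKM, and fell by 0.94 ± 0.25 (limma, adjusted p 0.0227). Psme2b fell by 1.31 ± 0.28 (limma, adjusted p 0.0102). The count over all 47 genes was 5 higher and 10 lower as deposited, 7 and 12 after quantile scaling, and 11 and 9 after scaling to equal summed FPKM. It was 2 and 6 without the wild-type nicotine library, the wild-type nicotine and LPS library or the α7nAChR-/- nicotine and LPS library, and 2 and 7 without α7nAChR-/- vehicle.

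The study gave nicotine before LPS, so the LPS response was read separately without and with nicotine, and the difference between them was tested. These comparisons share libraries with each other, so their values are given side by side. Without nicotine, all 5 immune forms rose, Psme2 by 2.63 ± 0.42, Psmb9 by 2.17 ± 0.37, Psmb8 by 2.10 ± 0.34, Psmb10 by 1.99 ± 0.28 and Psme1 by 1.59 ± 0.21 (limma, adjusted p 0.00225, 0.0028, 0.00233, 0.00135 and 0.00101). As FPKM ratios of LPS to vehicle these were 3.58 to 12.3 in wild-type and 2.58 to 3.41 in α7nAChR-/- cells. Of the 42 others 33 rose and none fell, with a median of 0.96 beside 0.08 for all tested genes. Of all tested genes 32.7% were called higher and 26.4% lower. The 33 held 6 of 7 alpha, 6 of 7 standard beta, 6 of 6 ATPase, 11 of 11 other cap subunits, 2 of 3 activators and inhibitors, Psme2b, and 1 of 7 assembly factors, Psmd10. The 38 calls over all 47 genes became 12 higher and 3 lower after quantile scaling (3 of 5 immune forms higher), and 12 higher and 10 lower after scaling to equal summed FPKM (5 of 5 immune forms higher).

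With nicotine, the LPS changes of the immune forms were 0.88 ± 0.34 for Psmb8, 0.80 ± 0.37 for Psmb9, 0.71 ± 0.42 for Psme2, 0.59 ± 0.28 for Psmb10 and 0.53 ± 0.21 for Psme1, and none passed the test (limma, adjusted p 0.13, 0.191, 0.298, 0.202 and 0.136; 2 of 5 at an unadjusted p below 0.05). Psmd14 alone of the 47 passed, with 0.76 ± 0.20 (limma, adjusted p 0.0499), beside 8.29% of all tested genes called higher and 6.59% lower. That call was lost with a pseudocount of 0.1, without the filter on low values, under quantile scaling, median centring or scaling to equal summed FPKM, and with a constant prior variance. Without the α7nAChR-/- LPS or the wild-type LPS library 6 of 47 were called, 3 of them immune forms, and without any of the other 6 libraries none was (2 to 10 at an unadjusted p below 0.05).

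The difference between the 2 responses was negative for 46 of the 47 genes, beside 5866 of the 10447 tested genes. It passed the test in 17 of the 47, all lower with nicotine, beside 17.3% of all tested genes called lower and 12.8% higher. Its median was -1.37 in the immune forms, -0.69 in the others and -0.11 in all tested genes. Among the immune forms it passed for Psmb10 at -1.39 ± 0.40 and Psme1 at -1.06 ± 0.30 (limma, adjusted p 0.0411 and 0.0386). It did not pass for Psme2 at -1.91 ± 0.60, Psmb9 at -1.37 ± 0.52 or Psmb8 at -1.22 ± 0.48 (limma, adjusted p 0.0527, 0.0894 and 0.098). By role it passed in 6 of 7 alpha, 4 of 7 standard beta, none of 6 ATPase and 4 of 11 other cap subunits, in Psme3, an activator found mostly in the nucleus, and in none of 7 assembly factors. The 3 largest among the others were Psma5, an alpha subunit, at -1.58 ± 0.22, Psmd11 at -1.41 ± 0.30 and Psmd7, a lid subunit, at -1.25 ± 0.23 (limma, adjusted p 0.00665, 0.0171 and 0.0125). Psma5 was at 49.7, 86.8, 194 and 85.9 FPKM in wild-type and at 86.6, 116, 250 and 144 FPKM in α7nAChR-/- cells, highest with LPS alone in both. Psmb5 and Psmb6 also passed, at -0.95 ± 0.24 and -0.82 ± 0.19, and Psmb7 at -0.68 ± 0.22 did not (limma, adjusted p 0.0293, 0.0224 and 0.0609). The values nearest 0 or above it were 0.20 ± 0.25 for Psmg1, -0.05 ± 0.24 for Psmg4 and -0.05 ± 0.21 for Psma1 (limma, adjusted p 0.576, 0.895 and 0.865), and the last 2 turned positive under quantile scaling and equal summed FPKM.

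The count of 17 rested on the scaling and on single libraries. It was 0 of 47 after quantile scaling (limma, 5 at an unadjusted p below 0.05) and 1 after scaling to equal summed FPKM, which moved the median over all tested genes from -0.11 to 0.46. The median of the immune forms lay 1.26 below the all-gene median as deposited, 1.15 below it after that scaling and 0.47 below it after quantile scaling. The median over the 47 genes was -0.75 as deposited, -0.16 after quantile scaling and -0.10 after scaling to equal summed FPKM. Without the wild-type nicotine and LPS library or the α7nAChR-/- nicotine library 1 was called, without wild-type nicotine or α7nAChR-/- nicotine and LPS 2, without wild-type vehicle 3, without α7nAChR-/- vehicle 12, and without α7nAChR-/- LPS 31.

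**Figure D3:**
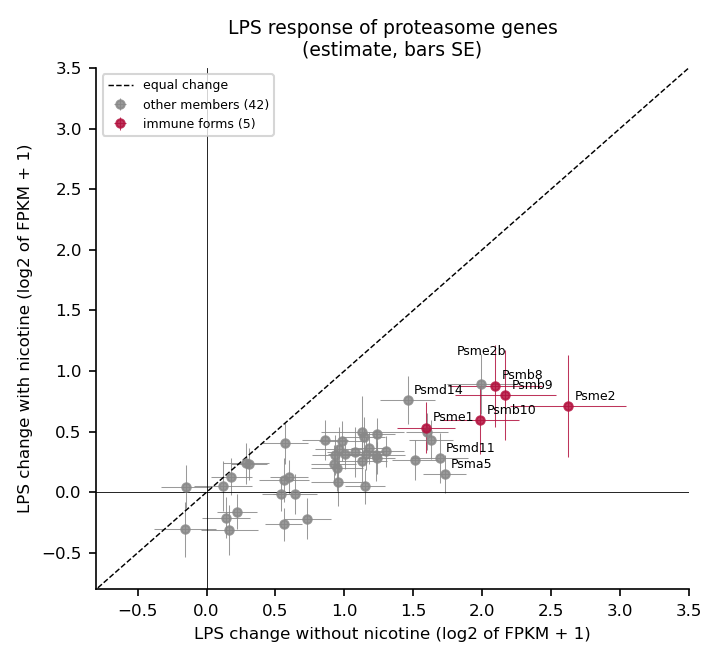
LPS change of each of the 47 genes without nicotine (horizontal) against with nicotine (vertical), both in log2(FPKM + 1) with bars for SE, red for the 5 immune forms and grey for the 42 others. All immune forms lie below the dashed line of equal change, at 1.59 to 2.63 without and 0.53 to 0.88 with nicotine.

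Read the other way, nicotine was compared with vehicle in cells without and with LPS. Without LPS, 4 of 5 immune forms fell, Psmb9 by 2.12 ± 0.37, Psmb10 by 1.72 ± 0.28, Psmb8 by 1.16 ± 0.34 and Psme1 by 0.76 ± 0.21 (limma, adjusted p 0.0037, 0.00286, 0.0255 and 0.0211). Psme2 at -0.49 ± 0.42 did not pass (limma, adjusted p 0.351). Of the 42 others 17 rose and 2 fell, beside 30.1% of all tested genes called higher and 26.0% lower. The 17 held 8 of 11 other cap subunits, 3 of 6 ATPases, 3 of 7 alpha subunits, 1 of 7 standard beta subunits, and the activators Psme3 and Psme4. The 2 that fell were Psme2b and Psmf1. The largest increases were those of Psmd11 at 1.58 ± 0.21, Psmc6 at 1.44 ± 0.17 and Psmd7 at 1.39 ± 0.17 (limma, adjusted p 0.00141, 0.000895 and 0.000978). Over the 47 genes the 17 higher and 6 lower became 9 and 7 after quantile scaling and 12 and 10 after scaling to equal summed FPKM. Leaving out a nicotine library or a vehicle library of either genotype left 2 of 5 immune forms called lower, and 13 to 18 genes called in all, with 13 without wild-type nicotine, 14 without α7nAChR-/- nicotine and 14 without wild-type vehicle.

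With LPS, all 5 immune forms fell with nicotine, and the counts of the others turned in the values as deposited. Psmb9 fell by 3.49 ± 0.37, Psmb10 by 3.12 ± 0.28, Psme2 by 2.41 ± 0.42, Psmb8 by 2.38 ± 0.34 and Psme1 by 1.82 ± 0.21 (limma, adjusted p 0.00061, 0.000385, 0.00364, 0.00169 and 0.000788). As ratios of FPKM, LPS alone stood 4.86 to 23.1 times above nicotine and LPS in wild-type cells and 2.61 to 6.24 times in α7nAChR-/- cells. Among the 42 others 2 rose, Psmc6 by 1.01 ± 0.17 and Psmd8 by 0.88 ± 0.18, and 15 fell (limma, adjusted p 0.003 and 0.00672 for the 2), beside 26.9% of all tested genes called higher and 28.6% lower. The 15 held 6 of 7 alpha ring subunits, 2 of 7 standard beta subunits, 1 of 6 ATPases, 2 of 11 other cap subunits, 2 of 7 assembly factors, Psmf1 and Psme2b. The alpha subunits that fell did so by 0.52 to 0.98. After scaling to equal summed FPKM 10 of the 47 were called higher and 10 lower, against 2 and 20 as deposited, and the 5 immune forms were among the 10 lower. Among the 42 others that scaling called 12 higher and 6 lower without LPS, and 10 higher and 5 lower with LPS. The turn in their counts was thus not seen under that scaling. It was seen under quantile scaling, with 9 higher and 3 lower without LPS and 2 higher and 9 lower with LPS. Median centring gave 16 higher and 2 lower without LPS, and 2 higher and 15 lower with LPS. Without the nicotine and LPS library of either genotype 13 of 47 were called, 5 of them immune forms.

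**Figure D4:**
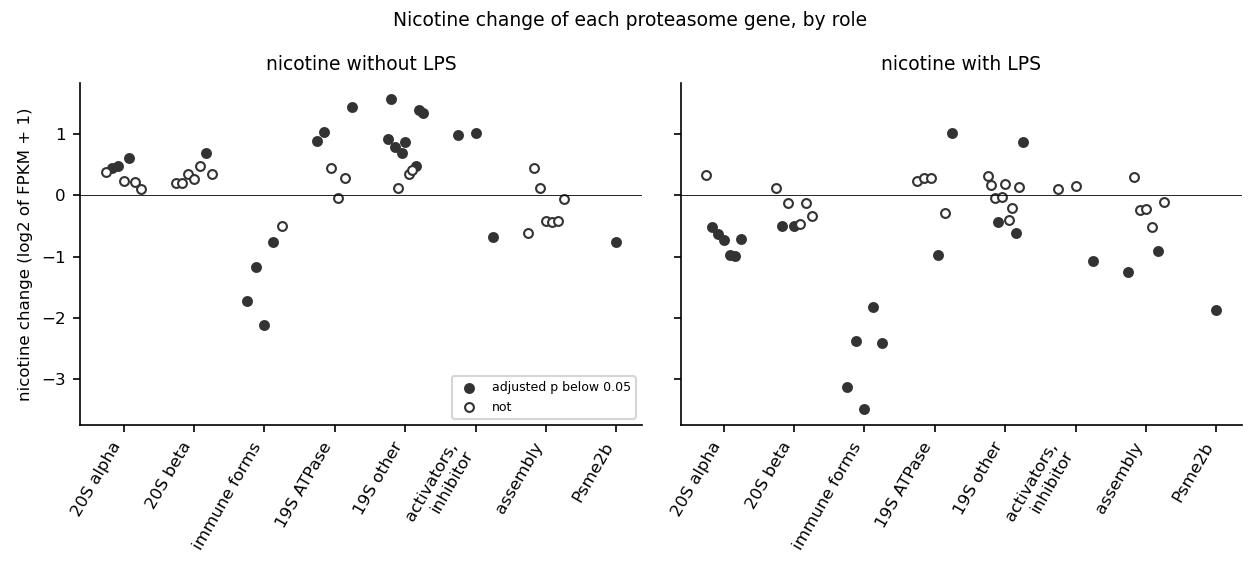
Nicotine change of each gene in log2(FPKM + 1) by role, without LPS on the left and with LPS on the right, filled where the limma adjusted p is below 0.05. Without LPS 8 of 11 non-ATPase cap subunits are called higher, with LPS 6 of 7 alpha subunits are called lower, and the immune forms reach -2.12 and -3.49.

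The highest treatment was the same in both genotypes for most members. It was LPS alone for 5 of 5 immune forms and 22 of the 42 others, and nicotine followed by LPS for 10 others, Psma1, Psmb1, Psmc2, Psmc3, Psmc6, Psmd1, Psmd2, Psmd7, Psmd11 and Psme3. Summed by role, the 6 cap ATPases were at 252 FPKM with vehicle, 461 after nicotine, 565 after LPS and 598 after both in wild-type cells. The 7 alpha ring genes were at 516, 692, 1367 and 814 FPKM and the immune forms at 279, 143, 1797 and 207 FPKM. In α7nAChR-/- cells the same sums were 330, 542, 490 and 625 FPKM for the ATPases, 745, 886, 1549 and 1039 FPKM for the alpha ring, and 775, 375, 2305 and 685 FPKM for the immune forms. The ATPase sum was thus highest with both agents, and the alpha ring and immune sums with LPS alone, in each genotype.

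The study included cells without the receptor, so genotype was compared over the 4 treatments. Every immune form was listed higher in α7nAChR-/- than in wild-type cells under all 4 treatments. The FPKM ratio of α7nAChR-/- to wild type ran from 1.99 (Psme1) to 4.62 (Psme2) with vehicle, from 2.01 (Psme1) to 3.69 (Psmb9) with nicotine, from 1.18 (Psme2) to 1.48 (Psmb9) with LPS, and from 2.68 (Psme1) to 5.49 (Psmb9) with both. The medians of the 42 others were 1.31, 1.27, 0.981 and 1.11. The summed neutrophil markers were also higher in α7nAChR-/- than in wild-type cells under each treatment, at 107 against 34.2 FPKM with vehicle, 60.7 against 22.9 with nicotine, 175 against 113 with LPS and 89.1 against 46.3 with both. Most of that sum was S100a8, at 1.10 ± 0.20 (limma, adjusted p 0.0671), while S100a9 stayed below 1 FPKM in all 8 libraries. The 10 macrophage markers were split, with 5 higher and 5 lower in α7nAChR-/- cells. Only Gata6, a factor of resident peritoneal macrophages, was called, lower by 1.24 ± 0.20 (limma, adjusted p 0.0458). Timd4, another of these markers, was higher by 1.45 ± 0.41 and did not pass (limma, adjusted p 0.211). The part of these differences in the result was not tested. On average Psmb9 was higher by 1.49 ± 0.37, Psme2 by 1.45 ± 0.47, Psmb8 by 1.25 ± 0.34, Psmb10 by 1.12 ± 0.34 and Psme1 by 0.97 ± 0.26 on the log2 scale, and none passed the test (limma, adjusted p 0.158, 0.272, 0.192, 0.24 and 0.188). In this additive model 0 of 47 members passed, 10 had an unadjusted p below 0.05, the 5 immune forms among them, and 0.689% of all tested genes were called higher and 0.412% lower.

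With the 4 treatments as blocks, a model that removes the LPS by nicotine difference from the error, 10 members were called higher and none lower, the 5 immune forms, Psma5, Psma7, Psmb5, Psmg4 and Psme2b. The adjusted p of the immune forms was then 0.016 to 0.037 (limma), and 4.76% of all tested genes were called higher and 2.88% lower. The additive model without the wild-type LPS library called 5, Psmb8, Psmb9, Psmb10, Psme2 and Psme2b. Among the others the highest average differences were 0.96 ± 0.28 for Psme2b and 0.68 ± 0.25 for Psmd10, and the lowest -0.24 ± 0.15 for Psmg1 and -0.06 ± 0.22 for Psme3 (limma, adjusted p 0.23, 0.336, 0.578 and 0.955).

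**Figure D5:**
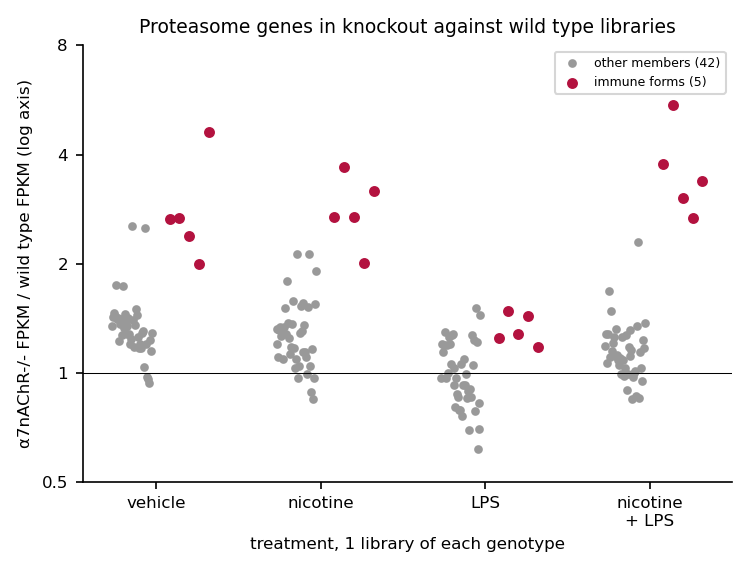
Ratio of α7nAChR-/- to wild-type FPKM (log axis) of each gene under the 4 treatments, red for the 5 immune forms and grey for the 42 others, with a line at 1. The immune forms are above 1 under every treatment and closest to 1 with LPS alone, at 1.18 to 1.48.

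Whether the response to nicotine or LPS differed between genotypes was tested with 1 residual degree of freedom, and 0 of 10447 genes passed for either (limma, 0.00% called, 634 and 955 genes at an unadjusted p below 0.05, of which 0 and 2 members). For the immune forms the nicotine change was 0.45 to 1.03 less negative in α7nAChR-/- cells (limma, adjusted p 0.74 to 0.84), and the difference in the LPS change was -0.93 to -0.02 (limma, adjusted p 0.61 to 0.98). These estimates do not show that the genotypes respond alike.

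Genes outside the set that work with the proteasome were read in 3 lists. MHC class I loading genes and their regulators (15 genes, all tested) had 12 called higher with LPS and none lower, with Tap1 at 2.71 ± 0.38 and Nlrc5, the class I transactivator, at 2.36 ± 0.49 the highest and H2-D1 at 0.45 ± 0.13 and Calr, a chaperone, at 0.46 ± 0.13 the lowest of the called. Of all tested genes 15.8% were called higher and 11.3% lower with LPS, and 24.1% higher and 22.2% lower with nicotine. With nicotine 6 of the 15 fell and 1 rose. Irf2, an interferon regulatory factor, fell by 1.65 ± 0.21, Erap1, a peptide trimming enzyme, fell by 0.73 ± 0.20, and Canx, a chaperone, rose by 0.88 ± 0.14. Tap1, the head to head neighbour of Psmb9, was at 17.4, 12.1, 294 and 34.3 FPKM in wild-type cells and at 52.4, 23.0, 402 and 135 FPKM in α7nAChR-/- cells. Unlike Psmb9, it was listed higher with nicotine followed by LPS than with vehicle in both genotypes.

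Assembly, shuttle and control genes (19 tested) had 5 called higher and 2 lower with LPS, Nfe2l1, a transcription factor for proteasome genes, at 0.95 ± 0.23 and Rad23b, a shuttle factor, at 0.68 ± 0.17 the highest, and Ddi2, the protease that activates Nfe2l1, at -0.77 ± 0.15 and Zfand2a at -0.61 ± 0.18 lower. The shares of all tested genes were 15.8% higher and 11.3% lower with LPS, and 24.1% higher and 22.2% lower with nicotine. With nicotine 11 rose and 3 fell. Zfand5, a proteasome-binding zinc finger protein, rose by 2.31 ± 0.17, from 13.4 to 20.8 FPKM in the 4 libraries without nicotine to 68.6 to 114 FPKM in the 4 with it, and Zfand2a, a stress-induced relative, rose by 2.27 ± 0.18. Ngly1 fell by 1.06 ± 0.19 and Pomp, the maturation factor of the core, by 0.59 ± 0.18. In the list of ubiquitin genes, Uba1, the activating enzyme, rose with LPS by 1.08 ± 0.31, and Ubb, a ubiquitin gene, rose by 0.47 ± 0.13 with LPS and by 1.50 ± 0.13 with nicotine. The LPS changes of Ubb, H2-D1 and Calr turned negative under quantile scaling and under scaling to equal summed FPKM.

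Markers of other cell types moved with the treatments as well. Of the mast cell genes 6 of 7 tested were called higher with LPS and 5 with nicotine. Of the dendritic cell genes 3 of 3 were called higher with LPS and 2 with nicotine. The shares of all tested genes called higher were 15.8% and 24.1%. The mast cell genes did not move together: without nicotine Hdc changed by 5.84 ± 0.18 with LPS and Kit by -0.11 ± 0.16. B cell genes had 3 of 8 called higher with LPS and 1 with nicotine, and T or NK cell genes none of 4 and 2. Of the 10 macrophage markers 1 was called lower with LPS, and with nicotine 1 was higher and 2 lower. The summed mast cell level was 159 to 211 FPKM with vehicle, 318 to 417 after nicotine, 391 to 453 after LPS and 630 to 807 after both, so it was highest where the immune forms stood at 0.267 to 1.37 times their vehicle level. The summed neutrophil markers were at 34.2 to 107 FPKM with vehicle, 22.9 to 60.7 after nicotine, 113 to 175 after LPS and 46.3 to 89.1 after both. The sum was lowest with nicotine alone and highest with LPS alone in each genotype, as were the immune forms. Only 2 of its 7 genes averaged 1 FPKM or more. Most of it was S100a8, while S100a9 stayed below 1 FPKM in all 8 libraries. The part of other cells in the results was not tested.

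Promoter windows of the same kind were found in RefSeq for 40 of the 47 genes (all 5 immune forms and 35 others), among 32851 windows of 300 bases, and each motif was searched on both strands. GAAANNGAAA was in 1 of the 5 immune forms, Psme1, in 4 of the 35 others and in 3.44% of all windows. TTCNNNGAA was in 1 of 5, Psmb8, in 2 of 35 and in 8.30% of all windows. TGACNNNGC was in none of 5, in 6 of 35 (Psmb5, Psmb6, Psmc6, Psmd9, Psmd12 and Psme4) and in 12.4% of all windows. The NF-kB consensus was in none of 5, in 1 of 35, Psmd12, and in 4.51% of all windows. A match is a description of these letters and not evidence of binding.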

How the data were processed

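RNA from 8 groups of cultured peritoneal macrophages, 1 library each, was sequenced from poly(A) libraries (TruSeq RNA Sample Prep Kit v2), per the labels' protocols. The authors deposited 1 FPKM value per gene and library. Per the submitters' processing notes the tools were Cuffdiff, Cufflinks, HISAT2 and CASAVA 1.8 and the build was mm10; the role of each tool, the annotation, filters and scaling were not given in the sources used here. The table held 24341 lines; where a symbol was repeated (2 symbols), its line of larger mean was used.

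Values were tested as log2(FPKM + 1) for genes averaging 1 FPKM or more, using limma 3.58.1 (moderated with a trend) in R 4.3.3 and Benjamini-Hochberg adjustment at 0.05. No count test was run on FPKM, and the low values gave no usable read steps, so the precision from depth is unknown. Average effects came from an additive model of genotype, nicotine and LPS (4 residual degrees of freedom), effects within 1 treatment and the LPS by nicotine difference from genotype plus the 4 treatments (3), and genotype interactions from a model with all pairwise interactions (1). The models were tested on simulated data with smaller and larger differences put in. The LPS by nicotine test found 4% of the smaller and 76% of the larger ones, and the genotype by nicotine test none of either size. Of the genes called there for the average LPS effect, 8.59% had no difference put in. Each simulation put 1 effect into a small share of the genes, with no other factor acting. Far more genes were called for LPS, nicotine and their difference in the data, so these rates may not hold there. Libraries were grouped by their titles and characteristics. Alternatives were other pseudocounts, filters, scalings, prior variances, models and leaving out each library.

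The members, the lists and the naming rule were chosen with earlier results of these data known. The rule named the 5 immune forms, the standard partners, the 3 highest and 3 lowest other members for LPS, nicotine and their interaction (2 and 2 for genotype), the members with the highest and lowest mean, and the 2 highest and 2 lowest called genes of each outside list. Other genes were named within a count or role group, and some results of the rule are left out here. Gene positions came from GENCODE M21, promoters from RefSeq. Protein sequences were not used here. Tables and figures were made in Python 3.11.15 with Matplotlib 3.10.9 and NumPy 2.4.6, pandas 2.3.3 and SciPy 1.17.1.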

Additional observations from a re-analysis of the deposited data

Results flagged for a closer look

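For 7 of the genes named above, the test of the difference itself found that the LPS change with nicotine differed from that without it. The difference in log2(FPKM + 1) was -1.39 for Psmb10 and -1.06 for Psme1 among the immune forms. It was -1.58 for Psma5, -1.41 for Psmd11 and -1.25 for Psmd7, and -0.95 for Psmb5 and -0.82 for Psmb6, the standard partners. None of the 7 passed after quantile scaling of the libraries, where 0 of the 47 genes were called.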

How the results depend on the processing

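The labels gave no replicate numbers to pair, and only pairs of libraries matched on the other 2 factors were used as blocks. Over 102 pairs of a named gene and a comparison, 1600 values were recomputed: 1280 kept their direction and side of the threshold, 254 were no longer past it, 30 came to pass it and 36 changed sign. The difference in median change between the immune forms and the other members kept its sign throughout, at 0.58 to 1.09 for LPS and -1.91 to -1.53 for nicotine when each library was left out. The 5 immune forms were called lower with nicotine in LPS-treated cells under every alternative tried.

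The 21 members called with LPS became 8 without a filter on low values, 5 under quantile scaling, 10 under equal summed FPKM, 0 with the factor alone (18 at an unadjusted p below 0.05, limma), 4 with matched pairs as blocks, and 0 to 20 when each library was left out. The 15 called with nicotine became 6 with the factor alone and 8 to 21 when each library was left out. The 0 called with genotype became 10 with matched pairs as blocks and 0 to 5 when each library was left out. The 17 called for the LPS by nicotine difference became 0 under quantile scaling, 1 under equal summed FPKM and 1 to 31 when each library was left out. The 38 called with LPS without nicotine became 15, 22 and 30 to 38 under the same settings. The 1 called with LPS after nicotine became 0 under a pseudocount of 0.1, no filter, quantile scaling, median centring and a constant prior variance, and 0 to 6 when each library was left out. The 23 called with nicotine without LPS became 13 to 32, and the 22 with LPS 13 to 26, when each library was left out. No member was called for either genotype interaction under the alternatives that could be fitted; leaving out a library left no residual degrees of freedom there. The cause of these changes was not tested.

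Of the values that changed sign, Psmb7 with nicotine was 0.00046 with a pseudocount of 0.1, 0.030 under equal summed FPKM and -0.16 to 0.14 when each library was left out. Psmb5 with nicotine was -0.14 under quantile scaling, -0.010 under median centring and -0.18 to 0.18 when each library was left out. For the LPS by nicotine difference, Psma1 was 0.58 under quantile scaling, 0.60 under equal summed FPKM and -0.24 to 0.13 when each library was left out, Psmg4 was 0.32, 0.59 and -0.28 to 0.18, and Psmg1 was -0.052 to 0.44 when each library was left out. For LPS, quantile scaling and equal summed FPKM gave -0.38 and -0.36 for Psmb5, -0.33 and -0.14 for Ubb, -0.54 and -0.16 for H2-D1, and -0.28 and -0.16 for Calr. Leaving out each library gave -0.12 to 0.064 for Psmg1 and -0.24 to 0.084 for Psmg3 with LPS, and -0.25 to 0.12 for Psme3 with genotype.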
